A study of Homo sapiens with 8 samples.

Results

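The 7 genes EZH2, MET, APP, ADAM10, IRS1, PBX3 and NOTCH1, which earlier literature names as targets of the microRNA (miRNA) miR-144-3p, were followed on 8 Agilent 2-colour expression arrays. The list was chosen with earlier results of these data known. Probes were taken by symbol alone, as all that the array design assigns to these 7 names out of 43317 gene names on the array. This gave 12 probes, of which EZH2 and MET had 1 each and the 5 other genes 2 each. The literature behind the list was not rechecked here.

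Each array compared 1 culture of transfected cells, labelled with the red dye Cy5, with mock cells of the same line that received no transfection, labelled with the green dye Cy3. SK-MES-1 cells, a lung squamous cell carcinoma line, received miR-144-3p on 1 array and miR-144-5p on another. The other 6 arrays held PC3 prostate cancer cells with si-PIR-2 or si-PIR-3 (small interfering RNAs against the gene PIR), SW1990 pancreatic cancer cells and MDA-MB-231 breast cancer cells with miR-204-5p, and PANC1 pancreatic cancer cells with miR-130-5p or miR-130-3p. All RNAs were delivered with Lipofectamine RNAiMAX, each condition had 1 array, and no dyes were swapped. An untransfected mock leaves the transfection itself and the miRNA joined in every ratio, and no array with a control miRNA was analysed here. The labels do not say whether the PANC1 miRNAs were of the miR-130a or the miR-130b precursor, nor how long after transfection RNA was taken.

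A miRNA is loaded into an Argonaute protein and pairs through its seed, bases 2 to 8, with sites that lie mostly in the 3′ untranslated regions of mRNAs, which lowers translation and usually also the amount of the mRNA. A precursor yields a 5p and a 3p strand with different seeds and hence different target sites. The miR-144 gene lies in a cluster with miR-451 that is best known for its high activity in red blood cell precursors, and miR-144-3p has been studied as a growth-restraining miRNA in several carcinomas. The members have different roles. EZH2 is the histone methyltransferase of Polycomb repressive complex 2, MET is the receptor of hepatocyte growth factor and NOTCH1 is a receptor for ligands on neighbouring cells. APP is the amyloid precursor protein, ADAM10 is a membrane protease that cleaves APP and Notch receptors, IRS1 is an adaptor of the insulin and IGF1 receptors and PBX3 is a homeodomain transcription factor.

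The mature sequences from RefSeq (GRCh38.p14) show which letters each transfected strand could pair with, with the seed in capitals. Both strands of miR-144 come from the minus strand, miR-144-3p from chr17:28861548-28861567 and miR-144-5p from chr17:28861583-28861604, and miR-101-3p is shown because it shares bases 2 to 7 with miR-144-3p.
miR-144-3p: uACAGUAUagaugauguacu
miR-144-5p: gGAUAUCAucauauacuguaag
miR-101-3p: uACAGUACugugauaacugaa
miR-204-5p: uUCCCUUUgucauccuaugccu
miR-130b-3p: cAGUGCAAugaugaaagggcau
The DNA-letter match to the seed of miR-144-3p is ATACTGT, and that of miR-144-5p is TGATATC. None of the 12 member probes, each 60 bases long, held ATACTGT or its 6-base core TACTGT, so the probes measured the members' mRNAs outside such a match. The untranslated regions of the members were not searched.

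The main result on the SK-MES-1 miR-144-3p array was that none of the 7 members was lowered by 1 or more on the log2 scale. The values are log2 ratios of Cy5 over Cy3 as the scanner software computed them, so -1 is a halving. Their error is the software's own estimate within 1 array and does not cover differences between cultures. On the 12 member probes this error was 0.20 to 0.34, while repeat spots of a probe had a median SD of 0.04. Of 24356 genes with a probe well above background on this array, 1.12% lay at or below -1 and 4.59% at or above 1, against 0 of 7 members in either direction. At these shares a count of 0 among 7 genes does not set the members apart. The median of the members was 0.02, beside 0.03 over all genes with an SD of 0.52. On the 12 probes the ratios ran from -0.18 to 0.44. The range of 2 errors around the ratio lay above -1 for all 12 probes and held 0 for 11 of them, the exception being the EZH2 probe. All 12 probes were well above background in both channels on all 8 arrays.

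**Figure D1:**
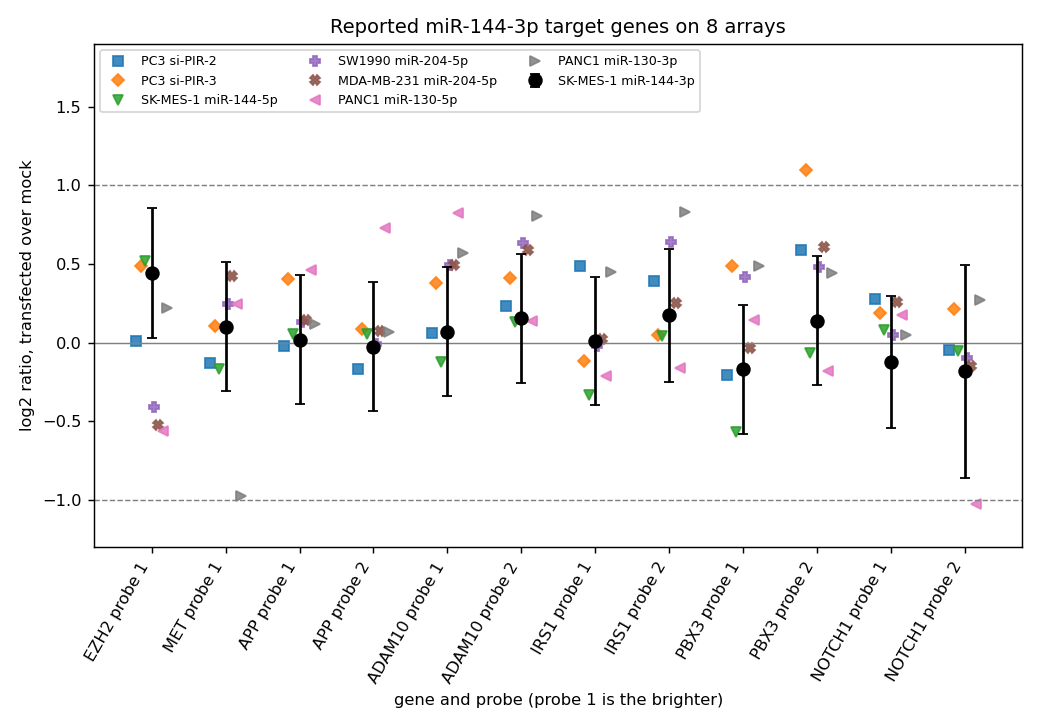
Log2 ratio of transfected over mock cells (y axis) for each of the 12 probes of the 7 reported miR-144-3p targets (x axis) on 8 arrays; black points with bars are the SK-MES-1 miR-144-3p array with 2 software errors, coloured symbols the other 7 arrays, and dashed lines mark -1 and 1. The black points lie between -0.18 and 0.44, and 1 value of 96 lies at or below -1.

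EZH2 was the only member whose ratio on the miR-144-3p array exceeded its range of error, and it was higher in transfected cells. Its ratio was above that of 86.0% of genes on the array and smaller than the SD of 0.52 over all genes. The share of all genes past their own range of error was not computed, so EZH2 is not set apart by this. Its probe (chr7:148504505-148504564 on hg19, minus strand) had a signal of 2475 in mock cells and 3364 in transfected cells, a log2 ratio of 0.44 ± 0.21 (software error, 1 array). On the miR-144-5p array the signals were 2804 and 4019, a ratio of 0.52 ± 0.21. EZH2 was thus about equally high with either strand. Across the other lines EZH2 stood at 0.01 with si-PIR-2 and 0.48 with si-PIR-3 in PC3, at -0.41 in SW1990 and -0.52 in MDA-MB-231 with miR-204-5p, and in PANC1 at -0.56 with miR-130-5p and 0.22 with miR-130-3p. The miR-144-3p value ranked 6th from the lowest of 8, and the 3 arrays below 0 were those of miR-204-5p and miR-130-5p.

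Among the receptors, MET was measured by 1 bright probe (chr7:116438290-116438349, plus strand), at 21244 in mock and 22800 in miR-144-3p cells. The ratio was 0.10 ± 0.20, against -0.17 ± 0.20 with miR-144-5p. Its lowest value in the series was on another array, the miR-130-3p array in PANC1, at -0.97 ± 0.22, while the 5 remaining arrays ran from -0.13 to 0.43. MET therefore lay near 0 in SK-MES-1 and just short of -1 with miR-130-3p.

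NOTCH1 was dim. Its brighter probe (chr9:139390523-139390582, minus strand) read 266 in mock and 244 in miR-144-3p cells, a ratio of -0.12 ± 0.21. This was the lowest of the 8 arrays for that probe, whose other 7 values ran from 0.05 to 0.28. NOTCH1 was the only member whose lowest value by the brighter probe fell on the miR-144-3p array. Any gene has its lowest value on 1 of the 8 arrays, so 1 such member of 7 does not set NOTCH1 apart. The share of all genes with their lowest value on this array was not computed. With other or no background correction followed by loess normalization, the miR-144-3p ratio was between -0.05 and -0.01. The spot also lay in a block of that array that held many spots with high ratios, described below. The second probe (chr9:139389764-139389823), at 43.1 in mock and 38.0 in transfected cells, gave -0.18 ± 0.34, and its lowest value was -1.03 on the miR-130-5p array. The probes of NOTCH1 differed by 1.20 there, so no direction was read from NOTCH1 on that array.

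APP had ratios close to 0 from both probes. Its first probe (chr21:27253136-27253195, minus strand) read 36289 in mock and 36774 in miR-144-3p cells, a ratio of 0.02 ± 0.20, and its second (chr21:27423347-27423406) gave -0.03 ± 0.20. With miR-144-5p these values were 0.06 and 0.05. Over the other 6 arrays the first probe ran from -0.02 to 0.46, with the highest value on the miR-130-5p array.

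ADAM10, which cleaves both APP and NOTCH1 at the cell surface, was also close to 0 on the miR-144-3p array. The brighter probe (chr15:58889401-58889460, minus strand) read 915 in mock and 960 in transfected cells, a ratio of 0.07 ± 0.20, and the other (chr15:58889255-58889314) gave 0.15 ± 0.20. Outside SK-MES-1 the brighter probe was above 0 on all 6 arrays. It stood at 0.06 and 0.38 with si-PIR-2 and si-PIR-3, at 0.50 in both lines with miR-204-5p, at 0.82 with miR-130-5p and at 0.57 with miR-130-3p. With miR-144-5p it was -0.12 ± 0.20. The other probe read 0.14 ± 0.21 with miR-130-5p, where the probes differed by 0.68, and 0.13 ± 0.20 with miR-144-5p. By the brighter probe the SK-MES-1 arrays held the lowest and the third lowest ADAM10 values. For that probe the mean of the other 6 arrays subtracted from the miR-144-3p ratio gave -0.40.

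IRS1 had a ratio of 0.01 ± 0.20 from its brighter probe (chr2:227600148-227600207, minus strand), with signals of 891 and 897. Its dimmer probe (chr2:227596618-227596677) gave 0.17 ± 0.21. With miR-144-5p the brighter probe read -0.33 ± 0.21 and the dimmer one 0.04 ± 0.21, so the probes differed in sign on that array. The other 6 arrays ran from -0.22 with miR-130-5p to 0.49 with si-PIR-2 for the brighter probe.

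PBX3 gave opposite signs from its probes. The brighter one (chr9:128728209-128728268, plus strand) read 869 in mock and 773 in miR-144-3p cells, a ratio of -0.17 ± 0.20, and the other (chr9:128728847-128728906) gave 0.14 ± 0.21. With miR-144-5p the brighter probe stood at -0.57 ± 0.21, the only member value on that array below -0.5, and the other probe at -0.07 ± 0.20. The 2 PBX3 probes differed by a median of 0.42 over the 8 arrays, and by up to 0.80 with si-PIR-2. The dimmer probe held the only member value at or above 1, 1.1 ± 0.23 with si-PIR-3, where the brighter one read 0.48.

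Over the other arrays no member gene reached -1 or 1 by its brighter probe. On the miR-144-5p array 0 of 7 lay at or below -1 and 0 at or above 1, against 1.98% and 4.19% of 24019 genes. The share of all genes at or below -1 was 2.87% with si-PIR-2, 2.28% with si-PIR-3, 1.93% with miR-204-5p in SW1990, 1.89% with miR-204-5p in MDA-MB-231, 6.18% with miR-130-5p and 1.93% with miR-130-3p. At these shares, and at that of the miR-144-3p array, few or no lowered genes would be found in any list of 7 genes, and the count of 0 does not set the members apart. With 1 array per condition no p-value was computed.

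The comparison of the 2 strands of miR-144 within SK-MES-1 asked whether the members were lower with the 3p strand, whose targets they are said to be, than with the 5p strand. None was lower by 1 or more, against 2.1% of 23193 genes, and none was higher by 1 or more, against 2.19%. The median difference of the members, miR-144-3p minus miR-144-5p, was 0.19, beside -0.01 over all genes with an SD of 0.43. PBX3 differed by 0.40 ± 0.29 (both software errors combined), IRS1 by 0.34 ± 0.29, MET by 0.27 ± 0.29 and ADAM10 by 0.19 ± 0.29, all higher with the 3p strand. APP differed by -0.04 ± 0.29, EZH2 by -0.08 ± 0.30 and NOTCH1 by -0.21 ± 0.29. No difference exceeded 2 errors. The mock levels of the 2 SK-MES-1 arrays, scaled as described below, differed by 0.13 for MET and 0.11 for ADAM10. For the other members they differed by 0.01 to 0.06. The second probes gave smaller differences of the same sign for PBX3 (0.21), IRS1 (0.13), ADAM10 (0.02) and NOTCH1 (-0.13), and -0.08 for APP.

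**Figure D2:**
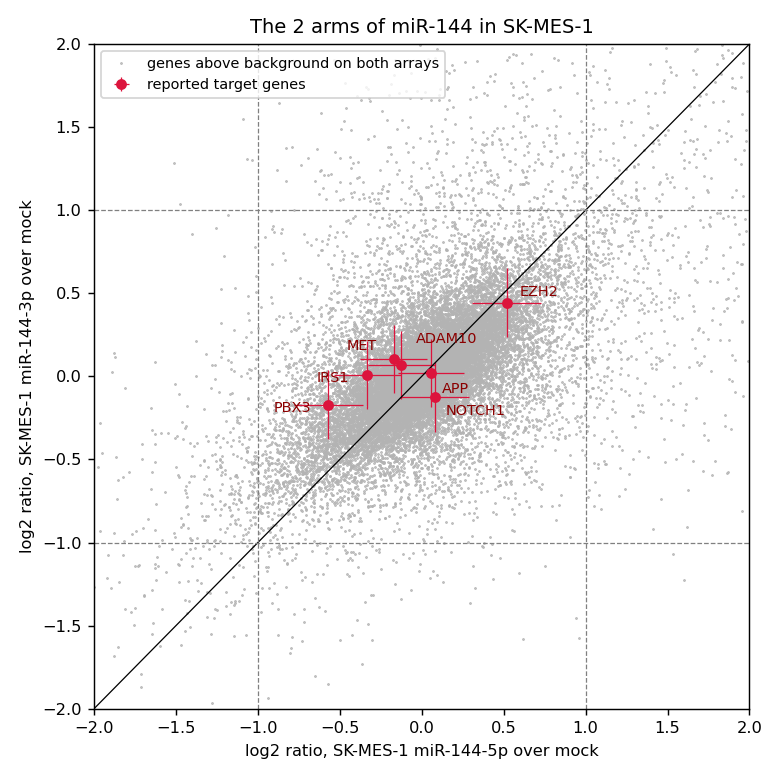
Log2 ratios over mock in SK-MES-1 cells transfected with miR-144-5p (x axis) and miR-144-3p (y axis); grey points are genes above background on both arrays, red points with bars of 1 software error are the 7 reported targets, and the black line marks equal ratios (axes end at -2 and 2, and genes beyond are not drawn). All 7 targets lie inside the dashed lines at -1 and 1, with EZH2 at 0.52 and 0.44.

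The partners of each member were described from 8 lists of pathway genes, 101 genes in all, of which 95 had a probe above background on the miR-144-3p array. Of these, 2 lay at or below -1 and 0 at or above 1, where the shares over all genes were 1.12% and 4.59%, and list medians ran from -0.15 to 0.16. The median of all 95 was -0.03. Both lowered genes belonged to the Notch list.

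Of the 10 partners of EZH2 in Polycomb repressive complex 2, 0 passed -1 or 1, with a median of 0.16. EED, the subunit that reads the methylated histone and activates EZH2, was the highest at 0.67 ± 0.21 with miR-144-3p and 0.69 with miR-144-5p. MTF2 stood at 0.34, PHF19 at -0.01 and PHF1 at -0.05, all 3 being accessory subunits. Among the 12 genes around MET the median was -0.15 and none passed either limit. The adaptors GRB2 (-0.50 ± 0.21) and SHC1 (-0.33 ± 0.21) were lowest, and ST14, a protease that activates hepatocyte growth factor (0.19), and the adaptor GAB1 (0.15 ± 0.48, mock signal not well above background) were highest.

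Of 15 genes of the APP family and its secretases none passed, with a median of 0.03. APBB1, an adaptor of the APP tail, came closest at -0.96 ± 0.24, and stood at -0.90 with miR-144-5p. The γ-secretase subunits APH1B and NCSTN read -0.55 and 0.41, and the adaptor APBA2 read 0.55. Of the 10 partners of ADAM10 none passed, with a median of -0.09. FURIN, a protease that matures ADAM10, read -0.66 ± 0.22 and the metalloprotease inhibitor TIMP3 -0.63 ± 0.21, while TSPAN5 and TSPAN15, tetraspanins that carry ADAM10 to the surface, read 0.23 and 0.32.

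In insulin and IGF receptor signalling around IRS1, 14 of 15 genes were measured and none passed, with a median of -0.09. The kinase AKT1 (-0.34) and the insulin receptor INSR (-0.33) were lowest, and the exchange factor SOS1 (0.35) and the receptor adaptor GRB10 (0.36) highest. Of 10 PBX family genes and partners 9 were measured and none passed, with a median of -0.06. PBXIP1, a protein that binds PBX factors, was lowest at -0.71 ± 0.22 and read -1.14 with miR-144-5p by the brightest of 3 probes (the others read -0.53 and -0.08 with miR-144-3p, and -0.88 and -0.98 with miR-144-5p), while PBX4 read 0.27 and MEIS1 0.30.

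In the Notch list 15 of 16 genes were measured, with a median of 0.02. NOTCH3, a paralog of NOTCH1, fell with both strands, to -1.48 ± 0.25 with miR-144-3p (signals of 2602 and 932) and -1.64 with miR-144-5p. DLL1, a Notch ligand, fell by 2.25 with miR-144-3p (signals of 156 and 32.8) and read -0.07 with miR-144-5p, a difference of -2.17. DLL1 and NOTCH3 were each measured by 1 probe, DLL1 also read -2.94 with miR-204-5p in MDA-MB-231, and neither fall had a replicate. The receptor NOTCH4 (0.55) and the Notch feedback gene NRARP (0.85) were highest.

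Of 13 other genes named as targets of miR-144-3p or of miR-101-3p, 10 were measured and none passed, with a median of -0.06. The DNA methyltransferase DNMT3A read -0.52 ± 0.21 and the kinase ROCK2 -0.29, against -0.20 and -0.77 with miR-144-5p. The GTPase RAC1 read 0.21, and the transcription factor FOS, whose mock signal was not well above background, 0.34 ± 0.72, against 1.56 with miR-144-5p, a difference of -1.21.

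Since the members' probes held no match to the seed, probes that did hold one were described, a step chosen after the data were seen. Of 58201 probes, 245 (0.42%) held ATACTGT on the strand of the mRNA, and 151 of them were above background on the miR-144-3p array. Their median log2 ratio was 0.11, beside 0.02 over all 31850 probes measured. None of the 151 lay at or below -1, against 1.03% of all probes, and 40.4% lay below 0, against 47.0%. On the other 7 arrays the median of the same motif minus that of all probes ran from -0.17 to 0.20, which encloses its value of 0.08 on the miR-144-3p array. With the 6-base match TACTGT, the difference was 0.06.

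The same count on other arrays shows how far matches to a transfected miRNA lay from all probes. With miR-204-5p the match AAAGGGA was held by 188 measured probes in SW1990, whose median was -0.20, and 15 of them (7.98%) lay at or below -1, against 1.9% of all probes. In MDA-MB-231 the median of 171 such probes was -0.22 and 13 (7.60%) lay at or below -1, against 1.84%. With miR-130-3p in PANC1, TTGCACT, the match of miR-130b-3p, gave a median of -0.08 over 135 probes, and 7 (5.19%) lay at or below -1, against 1.87%. These probes stood 0.11 below the median of all probes on both PANC1 arrays, and on the si-PIR-3 array, where no such miRNA was given, 9 of them (6.87%) lay at or below -1, against 2.40%. On the miR-144-5p array the match TGATATC gave a median of -0.08 over 73 probes, with 4 (5.48%) at or below -1, against 1.88%. On the miR-144-3p array the same match had a median of -0.07, and 1 of 68 probes (1.47%) lay at or below -1. A motif of 7 letters in a probe is a description and not a site, and motifs differ in base composition and position, whose part in these medians was not tested.

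**Figure D3:**
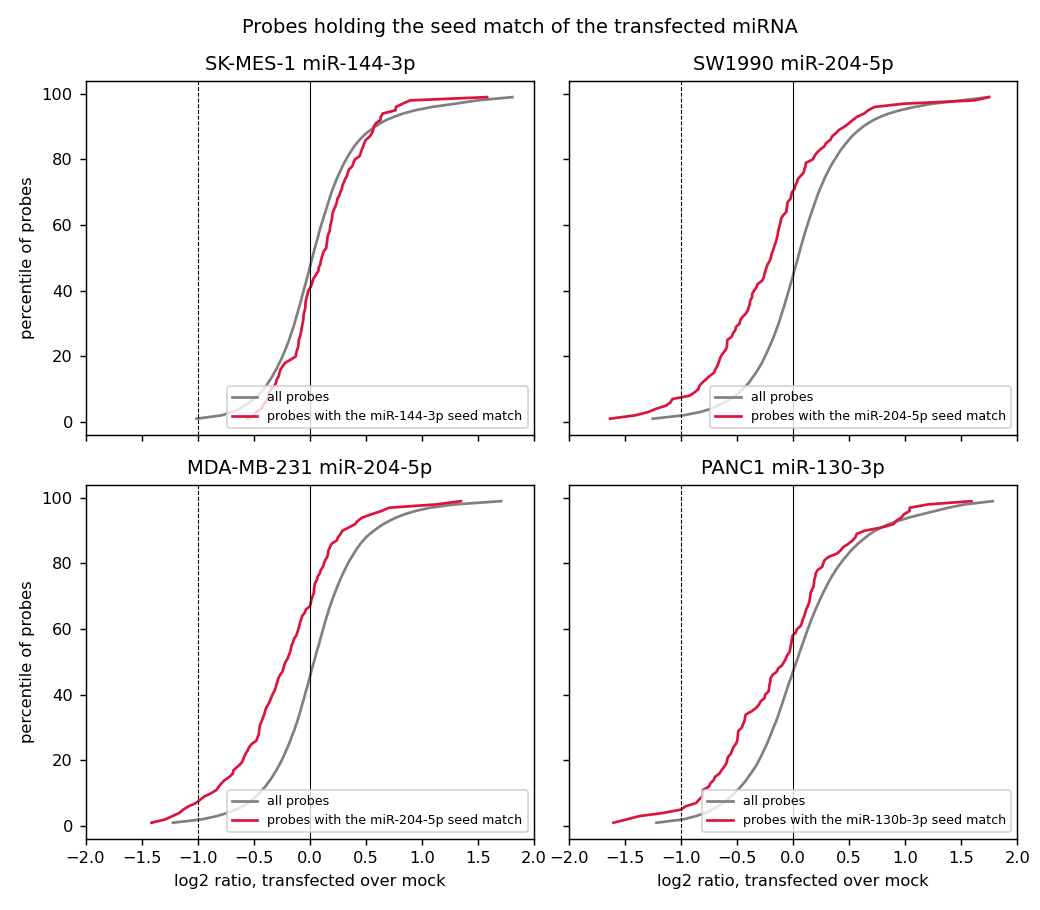
Percentile of probes (y axis) against the log2 ratio of transfected over mock cells (x axis) on 4 arrays, for all probes above background (grey) and for probes that hold the 7-base seed match of the named miRNA (red). On the miR-144-3p array the red line does not lie left of the grey line at its middle (medians of 0.11 and 0.02), whereas on the miR-204-5p arrays it lies left of it (medians of -0.20 and -0.22).

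The probes with the match followed by A, a base that Argonaute favours opposite the first base of the miRNA, were also described. There were 28 such probes for mRNAs with a RefSeq accession, measured in both dyes with both strands of miR-144, and on the miR-144-3p array their median was 0.06, with a range from -0.43 to 0.49. The 3 with the brightest mock signal are shown to let the match, in capitals, be read in its context on hg19: DVL1 (chr1:1270744-1270769, minus strand), AXL (chr19:41767406-41767431, plus strand) and MAP7D1 (chr1:36646176-36646201, plus strand).
DVL1: tctgtgctgtagATACTGTAtcaaag
AXL: ggttctaaccctATACTGTAgtattc
MAP7D1: cagtggatgtgaATACTGTAaatagc
DVL1, a Wnt signalling protein, read 0.10 ± 0.20 with miR-144-3p and -0.10 with miR-144-5p. AXL, a receptor tyrosine kinase, read 0.29 ± 0.21 and 0.70. MAP7D1 read 0.23 ± 0.21 and 0.36.

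How much of each mRNA the untransfected cells held was compared between lines from the Cy3 channel, within 1 probe, as log2 signal relative to the 75th percentile of each array over probes detected in Cy3 on all arrays. With the percentile taken over all probes instead, SK-MES-1 fell by 0.27 against the mean of the other 4 lines for every member. The mock channels of the 2 arrays of 1 line differed by an SD of up to 0.16 over probes, so neighbours closer than 0.33 were not separated. This limit came from PC3, SK-MES-1 and PANC1. SW1990 and MDA-MB-231 had 1 array each and thus no spread of their own. A gap above the limit is a description, and differences between lines were not tested. By the brighter probes IRS1 varied most, by 2.37 (5.16-fold), from 0.13 in SW1990 and 0.04 in MDA-MB-231 through -0.996 in PC3 and -1.11 in SK-MES-1 to -2.23 in PANC1. Within this order SW1990 and MDA-MB-231 were not separated, nor PC3 and SK-MES-1. The dimmer IRS1 probe spanned 1.58, less than the 1.78 of the dimmer ADAM10 probe, with MDA-MB-231 highest and PANC1 again lowest.

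ADAM10 was highest in SK-MES-1 (-1.04), followed by SW1990 (-1.27), MDA-MB-231 (-1.59), PANC1 (-2.10) and PC3 (-2.53), where SK-MES-1 was not separated from SW1990, nor SW1990 from MDA-MB-231. Both ADAM10 probes put SK-MES-1 first and PC3 last. APP was higher in PC3 (4.27) and SK-MES-1 (4.21) than in SW1990 (3.44), PANC1 (3.39) and MDA-MB-231 (3.37), with no separation within either set of lines. MET was highest in PC3 (4.18), then SK-MES-1 (3.51) and SW1990 (3.50), then MDA-MB-231 (2.98) and PANC1 (2.73), the last 2 not separated.

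EZH2 was lowest in SK-MES-1 (0.33), not separated from PANC1 (0.46), which was not separated from PC3 (0.58), while MDA-MB-231 (1.07) and SW1990 (1.16) were higher and not separated. For PBX3 the probes disagreed, the brighter one being highest in MDA-MB-231 (-0.93) and lowest in SW1990 (-2.40), and the other highest in PANC1 and lowest in PC3. By its brighter probe NOTCH1 differed by 0.46 in all, with no neighbours separated, from -2.61 in SW1990 to -3.08 in PANC1. Its dimmer probe spanned 0.95, from -4.66 in SW1990 to -5.61 in PC3. So all 7 mRNAs were present in untransfected SK-MES-1 cells, the dimmer NOTCH1 probe being closest to its background.

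**Figure D4:**
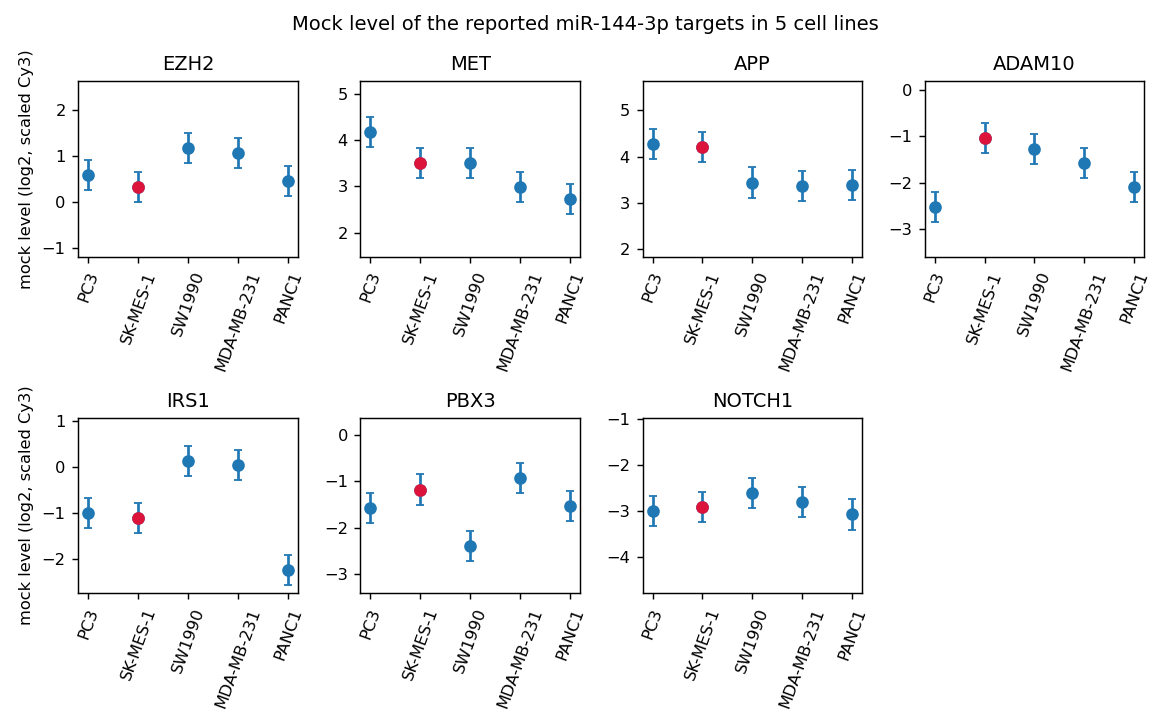
Mock level (y axis, log2 Cy3 signal of 1 probe relative to the 75th percentile of the array) of each of the 7 genes in untransfected cells of 5 lines (x axis), with SK-MES-1 in red and bars of 2 SD of the difference between mock channels of 1 line (0.33). By the brighter probes, IRS1 spans 2.37 between SW1990 and PANC1, and NOTCH1 spans 0.46. SW1990 and MDA-MB-231 had 1 array each, and their bars were taken from the other lines. Levels are not comparable between panels.

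Markers of squamous epithelium in the SK-MES-1 mock channel were above background for 4 of 7 genes (TP63, KRT14, SOX2, PKP1) on both arrays, and KRT5, KRT6A and DSG3 were not. The lung adenocarcinoma markers were above background for 0 of 3, and the mesenchymal markers VIM, ZEB1 and FN1 for 3 of 3. Markers of other tissues were above background too, 3 of 3 pancreatic ductal (KRT19, KRT7, S100P) and 3 of 3 breast luminal (ESR1, GATA3, KRT8) genes. On each array 41.4% to 46.4% of probes were well above background in Cy3 and 49.8% to 54.6% in Cy5, and no spot was saturated. On the miR-144-3p array, 93 of 189 spots with a log2 ratio over 2 lay in 1 of 42 equal blocks, rows 257 to 320 and columns 142 to 164. This block held 1423 spots in all, and no other block held over 8 spots with such ratios. The brighter NOTCH1 probe lay in this block, where 3 of its 117 neighbours within 5 rows and columns were above 1. The median of the neighbours was 0 around each of the 12 member probes, so it cannot show whether the block affected this spot. Without the probes of this block, 1.12% of genes lay at or below -1 and 4.15% at or above 1.

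The genes whose ratios over the 8 arrays ran most like a member's were found among 10479 genes with an SD of at least 0.3, as a description over 8 points that share arrays. They were SEC61A2 (r = 0.97) and ZNF326 (0.97) for EZH2, OCIAD2 (0.97) and CDK2AP2 (0.97) for MET, HIPK3 (0.97) and ENST00000479351 (0.97) for APP, and SCAF11 (0.99) and LOC100129434 (0.98) for ADAM10. They were PLOD2 (0.96) and INPP4B (0.96) for IRS1, GNG12 (0.97) and YIPF4 (0.96) for PBX3, and SH2B1 (0.93) and THC2668279 (0.93) for NOTCH1. The SD limit was not applied to the members, and the SDs of IRS1 (0.29), APP (0.18) and NOTCH1 (0.13) lay below it. The highest r among 10479 genes over 8 points is high by selection, so no shared regulation was read from these values.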

How the data were processed

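Total RNA of 8 pairs of mock and transfected cultures was hybridised to 2-colour Agilent arrays. The authors deposited the scanner output of Agilent Feature Extraction 11.5.1.1, with spot intensity in both dyes, flags for signals above background and for outlier spots, and a log10 ratio (red over green) made after background subtraction and dye normalization. The deposited value table was found equal to these log10 ratios for every probe. Per the file headers, coordinates are on hg19.

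Ratios and their errors were turned to the log2 scale. Spots of a probe were averaged without outlier spots, and the brightest probe above background in at least 1 channel stood for the gene. Alternatives used limma 3.58.1 in R 4.3.3 (normexp with an offset of 50 or 1, or no background correction, then loess), array median centring, the value table, other probe rules, thresholds of 0.5 and 1.5, other filters and subtraction of the mean of 6 arrays. There was 1 array per condition, and their number limits the precision. No replicate error could be had, and the software error does not cover differences between cultures. On the miR-144-3p array 291 probes with repeat spots had a median SD of 0.04.

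Members and lists were chosen with earlier results of these data known. Named genes were the members, the 2 lowest and 2 highest of each list on the miR-144-3p array, and the 2 genes most correlated with each member. Some items of these lists and of the marker lists are not reported here. Other genes were chosen after their values were seen. All 12 member probes carry RefSeq accessions that the reference table pairs with the same symbol. Figures were drawn with matplotlib 3.10.9.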

Additional observations from a re-analysis of the deposited data

How the results depend on the processing

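The count of members lowered by 1 or more on the miR-144-3p array was 0 under all 14 alternatives, and the count lower with miR-144-3p than with miR-144-5p was 0 under all 13. The value table, the threshold of 1.5, the highest probe and the filters on dim probes could not have changed either count. The table equals the scanner ratios, and all 12 probes pass each filter. A stricter threshold or the highest probe cannot raise a count of 0. Over the member probes the lowest ratio was -0.18 and the lowest difference between strands -0.21. Given these values, the threshold of 0.5, the mean or lowest probe and leaving out the block with many high ratios could not change the counts. Nor could median centring, since the median of the miR-144-3p array was 0.02. The median of the members on the miR-144-3p array was between -0.19 and 0.14 over 10 alternatives. It moved by more than the software error in 1 of them, to -0.19 when the mean of the 6 arrays outside SK-MES-1 was subtracted. The median difference between the strands ran from 0.02 to 0.23 over 9 alternatives. Ratios of single members stayed between -0.40 and 0.57, and 59 of 63 values moved by less than their software error. The exceptions were APP (-0.19), ADAM10 (-0.40) and PBX3 (-0.38) with the mean of the 6 arrays subtracted, and PBX3 (0.14) with its highest probe. Taking the 75th percentile of mock levels over all probes, in place of those detected on all arrays, lowered SK-MES-1 against the mean of the other 4 lines for all 7 members, and for MET the difference turned from 0.16 to -0.11. The cause was not tested. Leaving out the block with many high ratios was chosen after seeing the data. A change of 1 array per condition cannot be separated from the culture it came from, and ratios within about 0.40 of 0 lie inside 2 software errors. No paired analysis was possible because each condition had 1 array.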
